A study of Mus musculus and Bos taurus with 6 samples.

Results

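The microRNA miR-22 and its passenger strand were described in mammary glands of lactating mice and cows, where small RNA had been sequenced from total RNA of both species and from RNA bound to the Argonaute protein AGO2 in the mouse. The members were taken by name: every row of the deposited quantification tables carrying the mouse (mmu) or bovine (bta) prefix and the name miR-22 without its arm suffix. Both arms of the hairpin were found, mmu-miR-22-3p and mmu-miR-22-5p among the 1750 miRNA listed for the mouse libraries, and 2 bovine counterparts among the 1539 miRNA listed for the bovine libraries. The 6 libraries formed 3 groups of 2. The "mouse" group held total RNA of whole mammary glands of FVB/N mice at lactation day 12. The "AGO2" group held RNA recovered from FVB/N glands of the same stage with a monoclonal antibody to Argonaute 2. The "bovine" group held total RNA of mammary biopsies from Holstein cows in mid-lactation on a low forage diet, each library being a pool of biopsies from 2 cows. The glands came from 2 primiparous mice, with the lymph node removed, and the study states that its 2 AGO2 libraries came from different animals. The sources do not say which mouse or gland gave each mouse or AGO2 library. The tests were therefore unpaired, although the mouse and AGO2 groups may share animals. The p-values measure the spread between these libraries only. No library from a control antibody was analysed here.

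A miRNA hairpin is cut into a short duplex, of which one strand is usually kept in an Argonaute protein as the guide that recognises messenger RNAs, while the other, the passenger strand, is usually discarded. Bases 2 to 8 of the guide, the seed, do most of the target recognition. miR-22-3p is the guide strand of a hairpin conserved among vertebrates, and its known targets include the transcripts of the oestrogen receptor Esr1 and the Tet enzymes that oxidise methylated cytosine. miR-22-5p is the passenger strand of the same hairpin.

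The sequences of both arms are shown because they define the duplex whose strands were counted, with the seed in capitals, read from RefSeq on GRCm38.p6.
mmu-miR-22-3p: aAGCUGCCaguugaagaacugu
mmu-miR-22-5p: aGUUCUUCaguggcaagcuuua
The bovine list gave the same 5p sequence of 22 bases, and a 3p sequence of 21 bases identical to the first 21 of the mouse arm. It is shown in the DNA letters of the deposited table, seed in capitals.
bta-miR-22-3p: aAGCTGCCagttgaagaactg
The seed of each arm was therefore the same in both species. Among all other miRNA of the mouse list, 2 shared bases 2 to 7 with miR-22-3p and 2 with miR-22-5p, and the bovine list held 0 for either arm. These 4 were barely counted. The candidate mmu-16_17933_mt-5p had 59 counts in AGO2 replicate 1 and 0 in the other mouse and AGO2 libraries, mmu-8_42892_mt-3p had 60 counts in the same library and at most 3 elsewhere, and mmu-11_6469_st-5p and mmu-miR-7092-3p reached 7 and 1 counts. miR-22-3p itself had 35999 to 244038 counts per library and miR-22-5p 471 to 8017.

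The mouse hairpin lies on the plus strand of chromosome 11, chr11:75463716-75463810 of GRCm38.p6, the 5p arm at positions 75463734 to 75463755 and the 3p arm at 75463772 to 75463793. It is within exon 2 of Mir22hg, its non-coding host gene, and within exon 2 of a transcript of the overlapping protein-coding gene Tlcd2. The RefSeq hairpin of 95 bases is shown with both arms in capitals, the 5p arm first.
mmu-mir-22 hairpin: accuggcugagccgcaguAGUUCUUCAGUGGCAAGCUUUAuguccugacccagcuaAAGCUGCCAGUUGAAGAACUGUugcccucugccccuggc
The arms are separated by 16 bases, and the minimum free energy fold predicted by RNAfold, at -41.9 kcal/mol, paired 19 of the 22 bases of the 5p arm with bases of the 3p arm. The 3p arm had a GC content of 45.5% and the 5p arm of 40.9%, and both began with A.

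The libraries held 3909166 to 10613807 counts in all, with the AGO2 libraries the shallowest at 3909166 and 5041406. The AGO2 libraries also differed in the miRNA read, with 839 having a count in replicate 1 and 1080 in replicate 2. The study flagged its AGO2 sample 2 for many low-count reads, which its processing later removed. Levels are given as RPM, counts scaled to the same total in every library, and intervals and floors cover counting error only. Known markers fixed by name were read in every library. The summed level of the 6 epithelial markers, of the miR-200 family and miR-205, was 159803 and 188746 RPM in the mouse libraries, 338037 and 368284 RPM in the AGO2 libraries, and 77607 and 79458 RPM in the bovine libraries, with none of the 6 at 0. The 4 muscle markers summed to 163 and 213 RPM in mouse, 28.1 and 79.3 RPM in AGO2, and 727 and 782 RPM in bovine. Of these, mmu-miR-133b-3p was not matched to a bovine name. The 3 erythroid markers were at 6504 to 13343 RPM in mouse, 15527 to 32468 RPM in AGO2 and 1098 to 1709 RPM in bovine libraries. The 5 leukocyte markers were at 1263 and 2123 RPM in mouse, 2351 and 2971 RPM in AGO2, and 2553 and 3285 RPM in bovine. The 5 stromal markers were at 54443 and 71185 RPM in mouse, 37249 and 35114 RPM in AGO2, and 78041 and 63691 RPM in bovine. The endothelial list named miR-126, which the mouse table lists as miR-126a, so the list as fixed matched no mouse row. Chosen after its values were seen, mmu-miR-126a-3p had 16270 and 20468 RPM in mouse and 6776 and 6711 RPM in AGO2 (log2 fold change -1.30, edgeR, adjusted p = 0.027). In contrast, mmu-miR-126a-5p had 7924 and 13797 RPM in mouse and 22503 and 22108 RPM in AGO2 (1.18, edgeR, adjusted p = 0.042). Neither arm was called in bovine against mouse. There the log2 fold change was 0.46 for mmu-miR-126a-3p (edgeR, adjusted p = 0.16) and 0.73 for mmu-miR-126a-5p (adjusted p = 0.11). Because RPM is a share of a library's total, the higher epithelial sum in AGO2 stands beside every lower RPM value in that group, and its part in those values was not tested. The 6 epithelial markers did not move together. Their log2 fold changes in AGO2 over mouse ran from -1.71 for mmu-miR-200c-3p to 1.58 for mmu-miR-200a-3p.

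miR-22-3p was among the abundant miRNA of every library, and miR-22-5p was read far below it. miR-22-3p had 26241 and 19115 RPM in the mouse libraries, 9209 and 10036 RPM in the AGO2 libraries, and 24992 and 20532 RPM in the bovine libraries. Both AGO2 libraries lay below the other 4, and both bovine libraries lay within the range of the mouse libraries. miR-22-3p took 2.62% and 1.91% of the mouse counts, 0.921% and 1.00% of the AGO2 counts, and 2.50% and 2.05% of the bovine counts. It ranked 10 and 12 in the mouse libraries, 18 and 14 in the AGO2 libraries, and 10 and 16 in the bovine libraries.

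miR-22-5p had 735 and 769 RPM in the mouse libraries, 120 and 130 RPM in the AGO2 libraries, and 853 and 730 RPM in the bovine libraries. Again the AGO2 libraries were the lowest of all, while the mouse and bovine libraries overlapped. The least count behind a value was 471, in AGO2 replicate 1, where the 95% Wilson interval of the level ran from 110 to 132 RPM. The passenger strand was therefore far above the floor of 3 counts, which corresponded to 0.767 RPM in that library. It ranked 85 and 82 in the mouse libraries, 150 and 140 in the AGO2 libraries, and 88 and 89 in the bovine libraries.

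**Figure D1:**
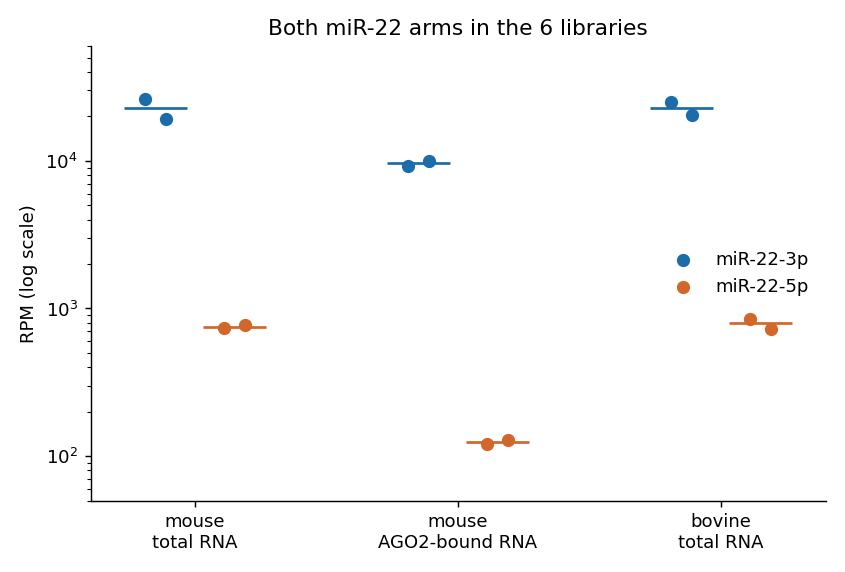
Level of miR-22-3p (blue) and miR-22-5p (orange) in each of the 6 libraries, in RPM on a log scale, with 1 point per library and a line at the mean of the 2 libraries of a group. Both arms are lowest in the 2 AGO2 libraries, at 9209 and 10036 RPM for miR-22-3p and 120 and 130 RPM for miR-22-5p.

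By group, miR-22-3p had a mean of 22678 ± 5039 RPM (SD, n = 2) in mouse, 9622 ± 585 RPM in AGO2 and 22762 ± 3153 RPM in bovine. The neighbours in the order of levels did not differ from it beyond that spread. In mouse it stood between mmu-let-7g-5p at 25482 RPM and mmu-miR-103-3p at 20976 RPM, in AGO2 between mmu-miR-27b-3p at 10174 RPM and mmu-miR-21a-5p at 9185 RPM, and in bovine between bta-miR-126-5p at 24518 RPM and bta-miR-26b-5p at 22290 RPM. miR-22-5p had a mean of 752 ± 24.1 RPM in mouse, 125 ± 6.39 RPM in AGO2 and 792 ± 86.5 RPM in bovine. It stood between mmu-miR-205-5p at 771 RPM and mmu-miR-183-5p at 740 RPM in mouse, between mmu-miR-708-5p at 129 RPM and mmu-miR-501-3p at 120 RPM in AGO2, and between bta-miR-130a-3p at 807 RPM and the candidate bta-10_2736_mt-3p at 782 RPM in bovine, again all within 1 SD.

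The replicates of miR-22 were closer together than those of most abundant miRNA in the mouse and AGO2 groups. The mouse libraries differed 1.37-fold for miR-22-3p and 1.05-fold for miR-22-5p, and of the 171 miRNA with at least 100 RPM in either mouse library, 109 and 160 were further apart. In AGO2 the folds were 1.09 and 1.07, with 141 and 145 of 167 miRNA further apart. In bovine the folds were 1.22 and 1.17, where only 60 and 68 of 172 miRNA were further apart.

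The first comparison asked whether the arms of miR-22 were carried by AGO2 in the proportions found in the whole gland. In AGO2 the passenger strand fell: miR-22-5p was 6.02-fold lower in mean RPM and passed the test, with a log2 fold change of -2.43 ± 0.65 (SE, edgeR quasi-likelihood test, adjusted p = 0.0074, 95% interval -3.79 to -1.08). The guide miR-22-3p was 2.36-fold lower in mean RPM, and its log2 fold change of -1.07 ± 0.40 (edgeR, adjusted p = 0.054, 95% interval -1.92 to -0.23) did not pass at 0.05. For both arms each AGO2 library was below each mouse library, and the exact permutation test of 2 against 2 libraries cannot go under p = 0.33, the value it gave for both. In all, 37 of the 299 miRNA tested, or 12.4%, were called lower in AGO2 and 46, or 15.4%, were called higher. The 299 included predicted candidates beside known miRNA, such as mmu-8_43005_mt-5p, called higher at 8.89, and mmu-11_6623_mt-3p, called lower at -5.58. These shares are therefore not those of known miRNA alone, which were not counted. The median log2 fold change over the 299 was -0.12, and 32 miRNA had a lower value than miR-22-5p and 94 a lower value than miR-22-3p.

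The call of miR-22-3p depended on the scaling. With library totals as the only scaling, which moved the median of all miRNA by -0.15, miR-22-3p was called lower (log2 fold change -1.24, edgeR, adjusted p = 0.034). miR-22-5p lost its call without AGO2 replicate 1 (-2.00, edgeR, adjusted p = 0.11) or AGO2 replicate 2 (-2.41, adjusted p = 0.059), fits in which the spread came from the mouse libraries alone and the lone AGO2 library was assumed to vary like them. Relative to the median of all miRNA, miR-22-3p was at -0.96 under the main scaling and -0.97 with library totals, and miR-22-5p at -2.32 under both.

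**Figure D2:**
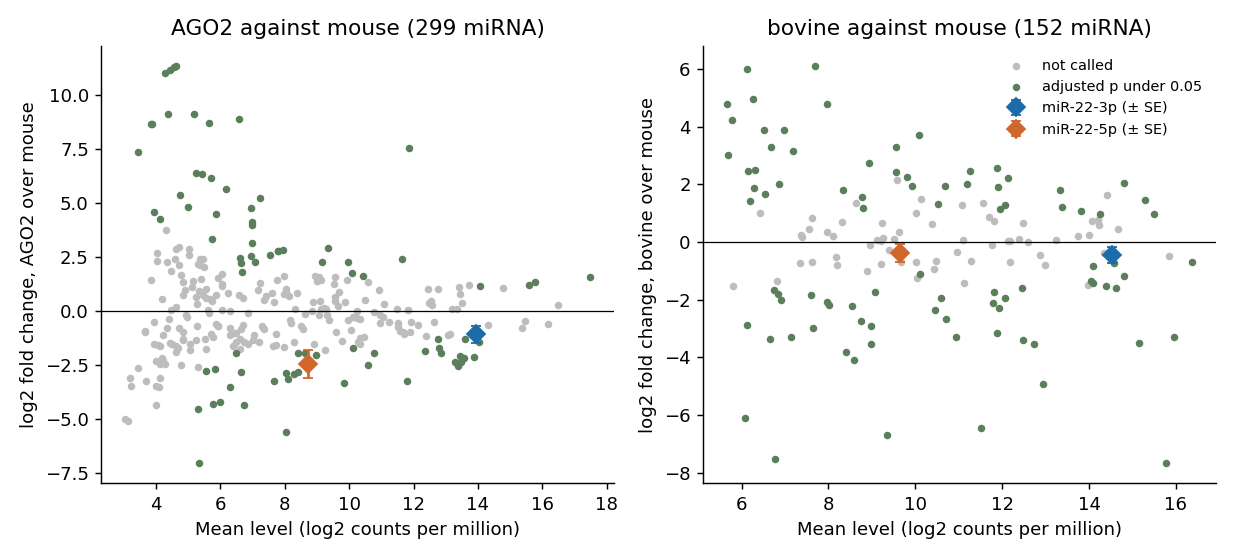
Each point is a miRNA, placed by its mean level in log2 CPM (horizontal) and its log2 fold change over mouse (vertical), for AGO2 on the left and bovine on the right. Green points had an adjusted p under 0.05, and the diamonds mark miR-22-3p (blue, -1.07 in AGO2 and -0.46 in bovine) and miR-22-5p (orange, -2.43 and -0.39) with bars of 1 SE.

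The share of the 5p arm is free of the library total, since both arms were counted in the same library. Of the miR-22 counts, 2.72% (95% Wilson interval 2.66 to 2.79%) and 3.87% (3.78 to 3.96%) came from the 5p arm in the mouse libraries. In AGO2 the 5p arm gave 1.29% (1.18 to 1.41%) and 1.27% (1.18 to 1.37%). In bovine it gave 3.30% (3.23 to 3.37%) and 3.43% (3.36 to 3.51%). The AGO2 libraries agreed within counting error and lay below the other 4, whereas the mouse libraries differed from each other by more than counting error and enclosed the bovine ones. As a ratio, there were 35.7 and 24.9 counts of miR-22-3p per count of miR-22-5p in mouse, 76.4 and 77.5 in AGO2, and 29.3 and 28.1 in bovine.

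**Figure D3:**
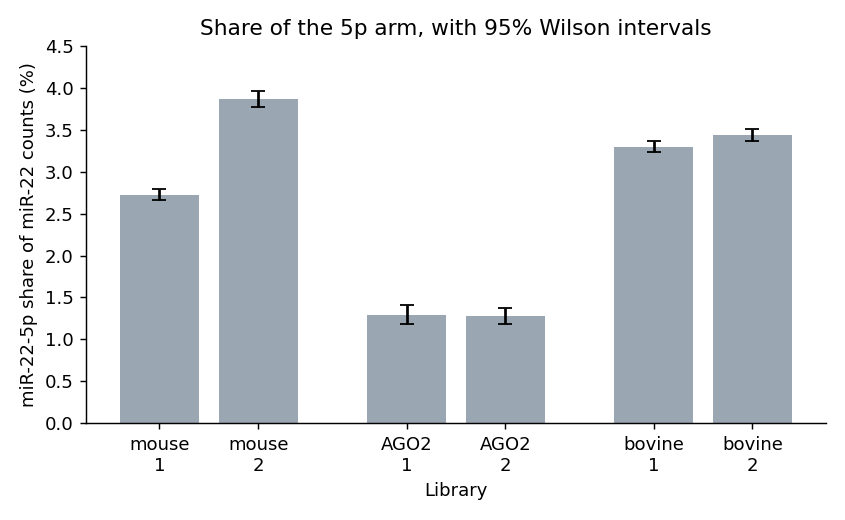
Bars give the percentage of miR-22 counts that came from the 5p arm in each library, with 95% Wilson intervals that cover counting error only. The 2 AGO2 libraries stand at 1.29% and 1.27%, and the other 4 range from 2.72% to 3.87%.

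The log2 ratio of 3p to 5p counts was 4.90 ± 0.37 (SD, n = 2) in mouse and 6.26 ± 0.014 in AGO2. The difference of 1.37 ± 0.39 (SE, limma, 95% interval 0.37 to 2.37), a 2.58-fold higher ratio, had a p of 0.017 in limma and did not pass after adjustment over 132 hairpins (adjusted p = 0.076). Of these hairpins 15.2% were called with a higher 3p to 5p ratio in AGO2 and 4.55% with a lower one, which were 20 and 6 hairpins. The counts depended on the libraries, from 1 and 1 without mouse replicate 1 and 3 and 1 without mouse replicate 2 to 54 and 18 without AGO2 replicate 1 and 49 and 29 without AGO2 replicate 2.

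The shift of miR-22 lay near the median over all hairpins when the 4 libraries were used. The median difference in log2 ratio over the 132 hairpins was 1.40, with quartiles of -0.96 and 3.65, and 67 hairpins lay above miR-22. This median moved to 1.64 without AGO2 replicate 1 and to 0.88 without AGO2 replicate 2, while miR-22 was at 1.38 and 1.36. With the 4 libraries kept, the median was 1.15 at a mean of at least 50 counts per arm and 1.19 with a pseudocount of 5. There miR-22 was at 1.37 and 1.36. The ratio of 3p to 5p was higher in AGO2 for 88 of 132 hairpins, for 23 of the 39 whose 3p arm was the more abundant in mouse, as in miR-22 (median 1.19), and for 65 of the 93 whose 5p arm was the more abundant (median 1.59). Counted by abundance and not by side, 51 hairpins moved towards the more abundant arm, as miR-22 did, and 81 towards the less abundant arm. The mouse values that set the more abundant arm also enter the difference. The count minimum was a mean over the 4 libraries, so an arm scarce in mouse could enter largely through its AGO2 counts. Such a hairpin moves towards its less abundant arm by selection. The splits by the more abundant arm are thus partly built in, and a preference for either arm was not tested. Among single miRNA tested, the 137 from 3p arms had a median log2 fold change of 0.36, with 25 called higher and 11 lower, and the 162 from 5p arms had a median of -0.60, with 21 called higher and 26 lower. By first base, the 77 miRNA that began with A, as both arms of miR-22 do, had a median of -0.16, with 10 called higher and 9 lower. The medians of the other first bases were 0.77 for C (65 miRNA), 0.06 for G (19) and -0.54 for T (138).

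The 3 hairpins with the difference nearest to that of miR-22 were mmu-mir-379 (1.38 ± 1.95, SE), mmu-mir-542 (1.41 ± 1.53) and mmu-mir-423 (1.29 ± 1.01), none of which passed the test (limma, adjusted p = 0.61, 0.52 and 0.38). Their standard errors were larger than that of miR-22. Like miR-22, mmu-mir-542 was read mostly from its 3p arm in mouse, at a log2 ratio of 2.60, whereas the other two were read mostly from the 5p arm.

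**Figure D4:**
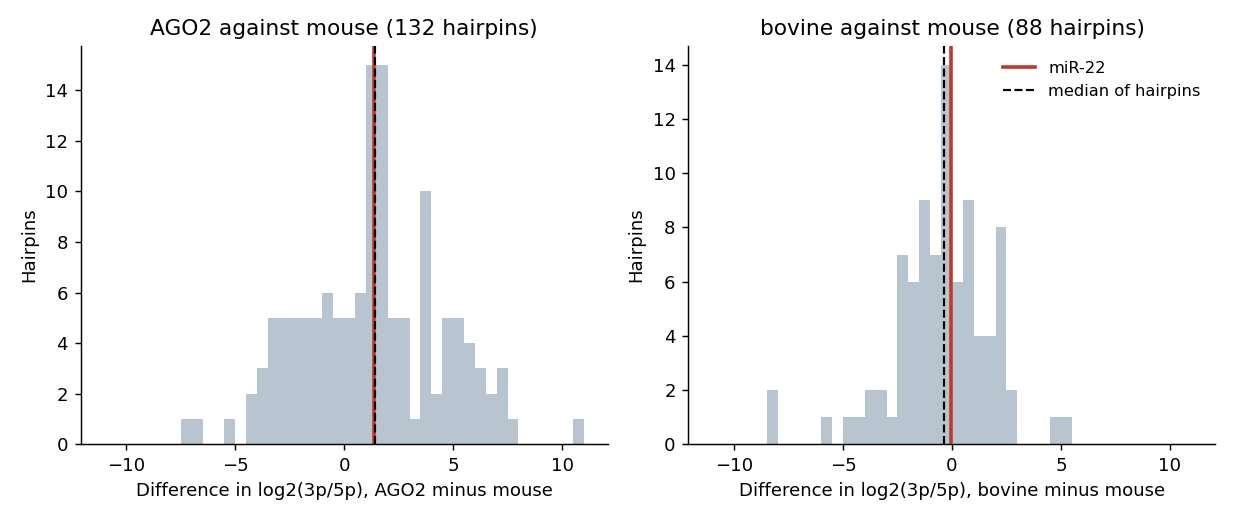
Histograms of the difference in log2(3p/5p) count ratio from mouse, over 132 hairpins for AGO2 (left) and 88 for bovine (right), in bins of 0.5. The red line is miR-22, at 1.37 in AGO2 and -0.05 in bovine, and the dashed line is the median hairpin, at 1.40 and -0.34.

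The passenger strand of miR-22 was well represented for an abundant hairpin. Among the 37 hairpins with at least 5000 RPM over both arms in mouse, the less abundant arm gave a median of 0.174% of the counts, against 3.21% for miR-22, and 33 had a lower share. In AGO2 the median was 0.228% over 28 such hairpins, against 1.28% for miR-22, and 20 had a lower share. Shares of hairpins with near-identical copies are uncertain, since reads of one copy can be counted for another.

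The second comparison set the bovine gland against the mouse gland. Species, parity, diet, RNA kit, sampling and pooling changed together there and cannot be told apart. Neither arm of miR-22 passed the test. For bovine over mouse, the log2 fold change was -0.46 ± 0.28 for miR-22-3p (SE, edgeR, adjusted p = 0.21, 95% interval -1.18 to 0.26) and -0.39 ± 0.31 for miR-22-5p (adjusted p = 0.32, 95% interval -1.19 to 0.42). In mean RPM the bovine level was 1.00-fold that of mouse for miR-22-3p and 1.05-fold for miR-22-5p, and the exact permutation test gave p = 1.0 for each. Of 152 matched miRNA tested, 27.6% were called higher and 30.3% lower in bovine, 42 and 46 miRNA, and the median log2 fold change was 0.04. With library totals only, the calls were 52 higher and 36 lower, and the direction turned for both arms, to 0.0053 and 0.074, while the median of all miRNA moved by 0.47. Relative to that median miR-22-3p was at -0.50 under both scalings and miR-22-5p at -0.42 and -0.43. Without mouse replicate 2, miR-22-3p was called lower in bovine (-0.72, edgeR, adjusted p = 0.014), in a fit whose spread came from the bovine pools alone and in which the lone mouse library was assumed to vary like them.

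The balance between the arms did not pass the test between the species. The log2 ratio of 3p to 5p counts was 4.84 ± 0.043 (SD, n = 2) in bovine, and the difference from mouse was -0.05 ± 0.33 (SE, limma, adjusted p = 0.90, 95% interval -0.77 to 0.66), which is wide enough to hold a 1.58-fold higher and a 1.71-fold lower ratio. Without mouse replicate 1 the difference was 0.21, with the opposite sign (limma, adjusted p = 0.45). Over the 88 hairpins matched between the species the median difference was -0.34, with 13.6% called higher and 25.0% lower in bovine. The median was -0.55 without mouse replicate 1, -0.19 without mouse replicate 2 and -0.16 when arms with a mean of 1 count were kept. The nearest hairpins were mmu-mir-27a at -0.05, mmu-mir-205 at -0.06 and mmu-mir-100 at -0.08, of which mmu-mir-27a was also read mostly from its 3p arm.

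The arms of miR-22 were not each other's nearest miRNA in their pattern over the 6 libraries. Profiles of log2(RPM + 1), each centred on its own mean, were compared by Euclidean distance over the 162 matched miRNA that reached 100 RPM in any library. The distance between the arms was 1.64, and 32 other miRNA were nearer to miR-22-3p and 14 nearer to miR-22-5p. The median distance was 2.82 from miR-22-3p and 3.51 from miR-22-5p. Nearest to miR-22-3p were mmu-miR-324-5p (0.53), mmu-miR-20a-5p (0.67) of the miR-17 cluster, and mmu-miR-497-5p (0.69) of the miR-15 family. Nearest to miR-22-5p were mmu-miR-24-3p (0.71), mmu-let-7g-5p (0.95) and mmu-let-7f-5p (0.98). mmu-miR-24-3p had 12483 and 12306 RPM in mouse, 2950 and 2894 RPM in AGO2, and 19618 and 20689 RPM in bovine. The points share their libraries and depths, and the likeness is a description.

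miRNA known to repress the same transcripts as miR-22-3p were read from lists fixed by name. Of 8 repressors of Esr1, 5 were tested in AGO2 against mouse and none was called by edgeR, with a median log2 fold change of -0.83. Also 0 of the 5 had an unadjusted p under 0.05, and DESeq2 called 0. Their values ran from -1.17 for mmu-miR-18a-5p (edgeR, adjusted p = 0.17) to 0.54 for mmu-miR-19b-3p (adjusted p = 0.55). Of 7 repressors of the Tet enzymes 2 were called higher and none lower (1 lower at an unadjusted p under 0.05 in edgeR, 0 lower by DESeq2), with a median of 0.54, from mmu-miR-26b-5p at -1.16 (edgeR, adjusted p = 0.077) to mmu-miR-29c-3p at 1.63 (adjusted p = 0.049). Over all 299 miRNA, beside these, 15.4% were called higher and 12.4% lower, and the median was -0.12.

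In bovine against mouse, 2 of the 6 tested Esr1 repressors were called higher and 4 lower, with a median of -1.81, from mmu-miR-221-3p at -2.29 to mmu-miR-18b-5p at 3.88. Of 6 tested Tet repressors 3 were called higher and 1 lower (2 lower at an unadjusted p under 0.05 in edgeR and 2 lower by DESeq2), with a median of 0.09, from mmu-miR-29a-3p at -1.58 to mmu-miR-29c-3p at 1.31. Over all 152 miRNA 27.6% were called higher and 30.3% lower, and the median was 0.04.

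The cell type lists were counted in the same fits, in which 15.4% of all miRNA were called higher and 12.4% lower in AGO2, and 27.6% higher and 30.3% lower in bovine. In AGO2 against mouse, 2 of 6 epithelial markers were called higher and 2 lower, from mmu-miR-200c-3p at -1.71 to mmu-miR-200a-3p at 1.58, and none of the 5 leukocyte or 5 stromal markers was called by edgeR. At an unadjusted p under 0.05 there was 1 higher leukocyte marker, and 1 stromal marker in each direction, and DESeq2 called 2 leukocyte markers and 1 stromal marker higher. The leukocyte values ran from mmu-miR-155-5p at -1.60 to mmu-miR-150-5p at 1.62, and the stromal values from mmu-miR-214-3p at -1.34 to mmu-miR-199a-5p at 1.57. Of the erythroid markers mmu-miR-144-3p was called higher at 2.40, and the lowest was mmu-miR-451a-5p at 1.23, with 2 of the 3 higher at an unadjusted p under 0.05 in edgeR and 2 higher by DESeq2. Of 2 muscle markers tested, mmu-miR-1a-3p was called lower at -2.82 and mmu-miR-133a-3p was at 2.69, not called. In bovine against mouse, 1 of 6 epithelial markers was called higher, mmu-miR-205-5p at 2.00, and 4 lower, the lowest being mmu-miR-200a-3p at -3.29. There 2 of 3 erythroid markers were called lower, from mmu-miR-144-3p at -6.69 to mmu-miR-486-5p at -0.81, which was not called. Of 5 leukocyte markers 2 were called in each direction, from mmu-miR-223-3p at -1.83 to mmu-miR-150-5p at 2.27. Of 5 stromal markers 1 was called higher, mmu-miR-145a-5p at 1.16, with mmu-miR-199a-5p the lowest at -0.50, and the 1 muscle marker tested, mmu-miR-1a-3p, was called higher at 1.56. Fewer cells of a type and less of a miRNA per cell cannot be told apart in these bulk libraries. The AGO2 libraries held RNA recovered with an antibody, so binding to AGO2 and recovery also enter their values. Their part was not tested.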

How the data were processed

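Per the labels and the study's methods, small RNA was tailed with poly(A), sequenced, stripped of the tail and quantified by the authors with miRDeep2 against miRBase. An A at the end of a miRNA, such as that of miR-22-5p, cannot be told from the tail. The submitters' processing notes name GRCm38, mm10 and UMD3.1. The deposited values were raw counts per miRNA, predicted candidates included, with 1 table per library. The 2 tables of predicted miRNA were not used.

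RPM was the count over the library's total. Levels were tested with edgeR 4.0.16 (TMM, quasi-likelihood, Benjamini-Hochberg), for AGO2 against mouse on miRNA whose count exceeded 175 in 1 or more of the 4 libraries, and for bovine against mouse on 251 name pairs from the authors' list, of which those with at least 100 RPM in 1 library were tested. Arm ratios, log2 of (3p + 0.5) over (5p + 0.5), were tested with limma 3.58.1 (trended) on hairpins with a mean of at least 10 counts per arm. Calls were made at an adjusted p of 0.05. The fits were tested on simulated data with changes larger than those of miR-22, and the outcome is not reported here. DESeq2 1.42.0, other scalings, filters and pseudocounts and leaving out each library were tried. RNAfold 2.7.2 gave the fold. The miRNA named beside miR-22 were the 3 nearest profiles of each arm, the neighbours in rank, the 3 hairpins nearest in arm ratio difference, and the highest and lowest tested member of each list. Members and lists were chosen with earlier results of these data known. Nothing ties the replicate numbers of one group to those of another. 1 of the lists fixed by name is not reported here.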

Additional observations from a re-analysis of the deposited data

How the results depend on the processing

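For AGO2 against mouse, miR-22-5p stayed lower in all 9 alternatives. It was called in all 5 that kept the 4 libraries (log2 fold change -2.59 to -2.33) and lost the call in 2 of the 4 that left out 1 library (-2.51 to -2.00). miR-22-3p stayed lower in all 9, and was called only with library totals (-1.24), with -1.30 to -0.63 on leaving out a library. The arm ratio difference ran from 1.11 to 1.63 on leaving out a library, and passed only without AGO2 replicate 1 (1.38, limma, adjusted p = 0.049). For bovine against mouse, library totals reversed miR-22-3p (0.0053) and miR-22-5p (0.074). Leaving out a library gave -0.72 to -0.25 for miR-22-3p and -0.54 to -0.41 for miR-22-5p. The arm ratio difference ran from -0.31 to 0.21 on leaving out a library. The causes of these changes were not tested.

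Counts of called miRNA moved by over 1.5 times with no filter on low counts, to 29 higher in AGO2 (with 34 lower, against 37) and to 73 higher and 71 lower in bovine. Without that filter 1750 miRNA were tested in AGO2, against 299, and 251 in bovine, against 152. These counts are therefore not out of the same number of miRNA as the main ones. In AGO2, 21 were lower without mouse replicate 1 and 23 without AGO2 replicate 1. Without bovine replicate 1 or 2 there were 26 or 21 higher and 26 or 25 lower in bovine. Hairpin calls fell to 1 and 0 in AGO2 when arms with a mean of 1 count were kept, and in bovine were 26 and 37 without mouse replicate 1, 5 and 10 without bovine replicate 1, and 4 and 9 without bovine replicate 2, against 12 and 22. DESeq2 called 69 higher and 48 lower in AGO2. The lowest count behind a level was 471.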
